A study of Mus musculus with 6 samples.

Results

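Sustentacular cells of the main olfactory epithelium were taken as the cells with at least 10 UMIs (unique molecular identifiers, each standing for 1 captured RNA molecule) of *Cyp2g1* and *Sec14l3* together, fewer than 10 UMIs of *Omp*, fewer than 3 of *Krt5* and fewer than 5 of *Gap43*, where only cells that reached 1000 UMIs and 500 genes were kept. The members were thus chosen by the measured UMIs of these 5 genes, and the rule found 3815 cells among 24830 kept cells of 6 libraries. *Cyp2g1* and *Sec14l3* mark sustentacular cells, *Omp* marks mature olfactory sensory neurons (OSNs), *Krt5* marks horizontal basal cells and *Gap43* marks immature neurons, so the levels of these genes in the members are no finding.

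The libraries were 10x single-cell RNA-seq libraries of papain-dissociated mouse olfactory epithelium, labelled by the submitters as OSN although the cells were of many types. The study asked what follows when heterochromatin protein HP1β is exchanged for HP1α in the olfactory lineage. In the swap allele the *Cbx1* (HP1β) coding sequence is flanked by loxP sites and followed by the *Cbx5* (HP1α) coding sequence, and a Cre recombinase removes the first so that the *Cbx1* promoter drives the second. The 2 swap libraries are labelled Cbx*/* with Cre, control replicate 1 is labelled WT with Cre and control replicate 2 is labelled Cbx*/* with no Cre, so that the controls differ from each other in which allele they carry. In the paper, control mice are Cbx fl/fl without Cre, which the label of control replicate 1 does not match. The labels were followed here. Of the remaining libraries, 1 was from gg8-tTA; tetOP2iresGFP (tetOP2), in which the *Gng8* promoter drives a tetracycline transactivator that switches on the odorant receptor P2 (*Olfr17*) and GFP in neurons, and 1 from gg8-tTA alone (gg8tTA). Neither carries the swap allele, and no ages were given.

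Sustentacular cells are the glia-like supporting cells at the apical side of the olfactory epithelium. They surround the dendrites of the OSNs, carry microvilli, regulate the ions and water of the mucus, and take up debris. They are known for a very high content of biotransformation enzymes, in which cytochrome P450s and other oxidising enzymes first modify odorants and inhaled chemicals and transferases then join them to sulfate, glucuronic acid or glutathione for export. HP1 proteins bind methylated lysine 9 of histone H3 and are part of heterochromatin in nearly all cells.

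In the order swap replicate 1, swap replicate 2, control replicate 1, control replicate 2, tetOP2 and gg8tTA, which all lists of 6 values below follow, the rule found 784, 737, 912, 520, 485 and 377 sustentacular cells among 5003, 4947, 5091, 4433, 2563 and 2793 kept cells. Their summed depth was 13830784, 13888272, 11421645, 10121140, 7185739 and 5626286 UMIs, and the median cell held 14720.5, 17630, 12134.5, 18361, 13758 and 13813 UMIs. As shares of kept cells these were 15.7%, 14.9%, 17.9%, 11.7%, 18.9% and 13.5%. The submitters' design text speaks of sorted cells, whereas the methods describe no sort for these libraries. A sort would change what these shares mean. The swap mean of 15.3% ± 0.546 (SD, n = 2) lay within the range of the controls, whose mean was 14.8% ± 4.37 (SD, n = 2). The difference of 0.462 percentage points had a two-sided exact permutation p of 1, where 2 libraries against 2 cannot give less than 0.333, and without control replicate 2 it was -2.63.

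Some libraries stood apart before any comparison. *Rn45s*, a ribosomal RNA precursor, reached 63438 and 39533 UMIs per 1000000 UMIs of the summed cells (CPM) in the sustentacular cells of swap replicate 2 and control replicate 2, against 6245 and 7146 CPM in swap replicate 1 and control replicate 1. The sustentacular sums of swap replicate 2 and control replicate 2 correlated at 0.975 across genes, above the 0.955 of the 2 swap sums and the 0.952 of the 2 control sums. *Xist*, expressed from the inactive X chromosome, was at 1123 CPM in swap replicate 1 and at 0.576, 0.175 and 0.395 CPM in swap replicate 2 and the controls, so that swap replicate 1 alone among these 4 had a female profile. Over pairs of libraries, 60 barcodes of kept cells were shared, 5 of them on sustentacular cells in both.

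The name sustentacular, which comes from the rule and not from the labels, was checked against marker lists of cell types of the tissue. The list of 13 sustentacular markers includes *Cyp2g1* and *Sec14l3*, which chose the cells. The other 11 all had UMIs in every library and summed to 29411, 31760, 32435, 32122, 26191 and 28339 CPM in the members, against 1955 to 4337 CPM in the other kept cells. The 7 markers of mature neurons beside *Omp*, which the rule limits, summed to 128, 148, 189, 254, 498 and 506 CPM in the members, against 5020 to 12691 CPM in the other cells. The markers of respiratory ciliated cells summed to 559, 330, 272, 224, 93.7 and 290 CPM in the members, above the other cells' 120 to 154 CPM in all but tetOP2, and sat in 38, 32, 26, 18, 10 and 18 members with at least 3 such UMIs. The leukocyte markers, led by the neutrophil gene *S100a9* in the 4 swap and control libraries, summed to 799, 1371, 189, 553, 144 and 76.8 CPM. Leukocyte markers were thus highest in both swap libraries, and they also stood at 9871 and 15846 CPM in the other swap cells against 5377 and 12208 CPM in the other control cells. The 8 markers of Bowman glands, the secretory glands beneath the epithelium, summed to 1043, 809, 1014, 913, 750 and 1465 CPM in the members against 858, 163, 820, 126, 339 and 2432 CPM in the other cells, so they were above the other cells in all but gg8tTA. Their most abundant member was the water channel *Aqp5* at 514 to 686 CPM, and 76.1% to 90.2% of the members held at least 3 UMIs of the list. The 3 horizontal basal markers beside *Krt5*, also a gene of the rule, summed to at most 48.1 CPM in the members and to 104 to 539 CPM in the other cells. Immature neuron markers, which include the rule gene *Gap43*, summed to 92.9 to 213 CPM against 1643 to 3277 CPM. Globose basal and dividing markers summed to 46.9 to 200 CPM against 139 to 436 CPM. Members with at least 3 UMIs of *Mki67* and *Top2a*, called dividing below, numbered 64, 34, 35, 27, 33 and 17. Microvillar and erythroid markers were lower in the members than in the other cells of every library.

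At the edge of the rule, the 7 to 30 cells of a library with 10 to 12 UMIs of *Cyp2g1* and *Sec14l3* held 944 to 3385 CPM of *Cyp2a5*, and the 19 to 30 cells of a library with 7 to 9 UMIs held 440 to 2068 CPM. These ranges overlapped, so the lower limit cut through a gradient.

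Beside *Rn45s* and the nuclear RNA *Malat1* (17528 to 21480.2 CPM), the highest mean levels in the sustentacular cells were those of *Bpifa1*, *Cyp2a5*, *Cyp2g1*, *Scgb1c1* and *Cbr2*. UMIs were counted per molecule at the transcript's 3′ end, so CPM values are not divided by gene length. *Cyp2a5*, a P450 that oxidises many small inhaled compounds, was at 12647, 15699, 15246, 15365, 9199 and 10879 CPM. *Bpifa1*, a secreted airway defence protein, was at 11648, 22382, 11615, 28367, 9805 and 12100 CPM. *Scgb1c1*, a secretoglobin, ranged from 6570 to 10060 CPM and *Cbr2*, a carbonyl reductase, from 6505 to 9220 CPM. *Cyp2a5* and *Cbr2* stayed within narrow ranges, whereas *Bpifa1* was highest in swap replicate 2 and control replicate 2, the libraries that also held the most *Rn45s*. *Reg3g*, an antimicrobial lectin, was at 7037, 2131, 1631, 3223, 4666 and 4783 CPM, but 5 cells held 47.4% to 66.7% of its UMIs in each library.

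By ratio to all other kept cells, the leading genes after the 2 rule genes were *AU021092*, *Cyp1a2*, *Cyp2a5*, *Ermn*, *Atp6v0a4* and *Gldn*. *Cyp1a2*, a P450 that oxidises planar aromatic amines, was at 494, 891, 1035, 1265, 837 and 951 CPM, on average 16.2 times the other cells. *Atp6v0a4*, a subunit of the vacuolar proton pump, averaged 209 CPM and 15.4 times the other cells, and *Pon1*, an esterase that hydrolyses lactones and organophosphates, averaged 1341 CPM and 14.9 times. The mucin *Muc2* (497 to 1389 CPM), the alarmin *Il33* (335 to 509 CPM) and *Tyro3* (318 to 437 CPM), a receptor used in the uptake of dying cells, were also among the 20 leading genes. In all, 1198 genes were at 100 CPM or more in the sustentacular sum of every library, of 21176 genes detected.

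The enzyme families were each carried by a few members. The P450s of families 1 to 4 summed to 15590, 20518, 18645, 21324, 13272 and 14929 CPM without *Cyp2g1*, which chose the cells, and to 20889, 30032, 27948, 31709, 23261 and 26149 CPM with it. *Cyp2a5* held most of the first sum, and *Cyp2f2*, which oxidises naphthalene, contributed 1516 to 3605 CPM. *Por*, the reductase that feeds electrons to P450s, was at 934, 1414, 1292, 1599, 1676 and 1805 CPM, and *Cyb5a*, its cytochrome b5 partner, at 2218 to 2565 CPM. *Sult1c1*, a sulfotransferase, was at 1927 to 3261 CPM, *Ugt2a1*, the olfactory glucuronosyltransferase, at 165 to 681 CPM and *Ces1d*, a carboxylesterase, at 756 to 870 CPM. Among the glutathione S-transferases, *Gstm1* was at 3352, 6100, 6878, 6898, 12266 and 7925 CPM and *Gstm5* at 1408, 750, 1000, 835, 689 and 1148 CPM. *Gstm1* was therefore lowest and *Gstm5* highest in the same library, swap replicate 1. *Ugt2a1* was highest in swap replicate 2 and control replicate 2 and lowest in tetOP2 and gg8tTA.

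*Cbx1*, located at chr11:96789127-96808640 (mm10), was nearly absent from the sustentacular cells of swap mice. Its level was 0.651 CPM in swap replicate 1 (9 UMIs) and 1.44 CPM in swap replicate 2 (20 UMIs), against 64.8 and 36.1 CPM in the controls (740 and 365 UMIs) and 46.6 and 35.4 CPM in tetOP2 and gg8tTA. Both swap libraries lay far below every other library. Swap against control, over 13455 genes tested in sums of sustentacular cells, *Cbx1* fell by 5.59 on the log2 scale (SE 0.51, edgeR quasi-likelihood test, Benjamini-Hochberg adjusted p = 0.0473), and it was the 1 gene called lower, 0.00743% of the genes tested. The adjusted p ran from 3.14e-38 to 0.154 over the alternative settings, and it was above 0.05 in 5 of them, with a log2 difference between -6.23 and -5.04 throughout. The p-values measure only the spread between these libraries, which the study's methods describe as biological replicates.

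After each cell was thinned to 5000 UMIs, a *Cbx1* UMI was found in 0.582% (95% Clopper-Pearson interval 0.159 to 1.48) and 0.752% (0.245 to 1.75) of swap sustentacular cells, against 25.7% (22.6 to 29.0) and 12.8% (9.80 to 16.3) of control ones. Without thinning the shares were 1.02%, 2.71%, 47.9% and 41.3%. All intervals given here cover counting error only. The difference of -18.6 percentage points had an exact two-sided permutation p of 0.333, the smallest that 2 against 2 can give. In neurons with at least 10 *Omp* UMIs, *Cbx1* was at 2.35 and 3.44 CPM in swap and 83.2 and 154 CPM in control. In cells with *Ptprc* UMIs, a leukocyte gene, *Cbx1* stood at 27.4 and 41.0 CPM in swap and 49.5 and 61.3 CPM in control.

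*Cbx5*, at chr15:103191544-103239816, overlapped between swap and control in sustentacular cells. It was at 142 and 185 CPM in swap and 91.2 and 151 CPM in control, so that control replicate 2 lay above swap replicate 1. The log2 difference was 0.45 (SE 0.30, edgeR, Benjamini-Hochberg adjusted p = 1.00). In neurons the values were 79.8 and 88.9 CPM in swap and 20.8 and 33.3 CPM in control, which did not overlap. The difference between the cell types was not tested. UMIs are read near the 3′ end, and to which gene the swap transcript with its *Cbx5* coding sequence was counted was not tested either. *Cbx3*, the gene of HP1γ, was at 229 and 217 CPM in swap and 267 and 246 CPM in control, a log2 difference of -0.20 (SE 0.25, edgeR, Benjamini-Hochberg adjusted p = 1.00). Among the 18 genes of the list of HP1 proteins and H3K9 methylation, *Cbx1* alone was called, where 0.0223% of all genes tested were. With no overlap, 4 were higher and 2 lower in swap, beside 12.1% and 9.88% of all genes tested. The median log2 difference was 0.09, beside -0.01 over all genes tested.

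**Figure D1:**
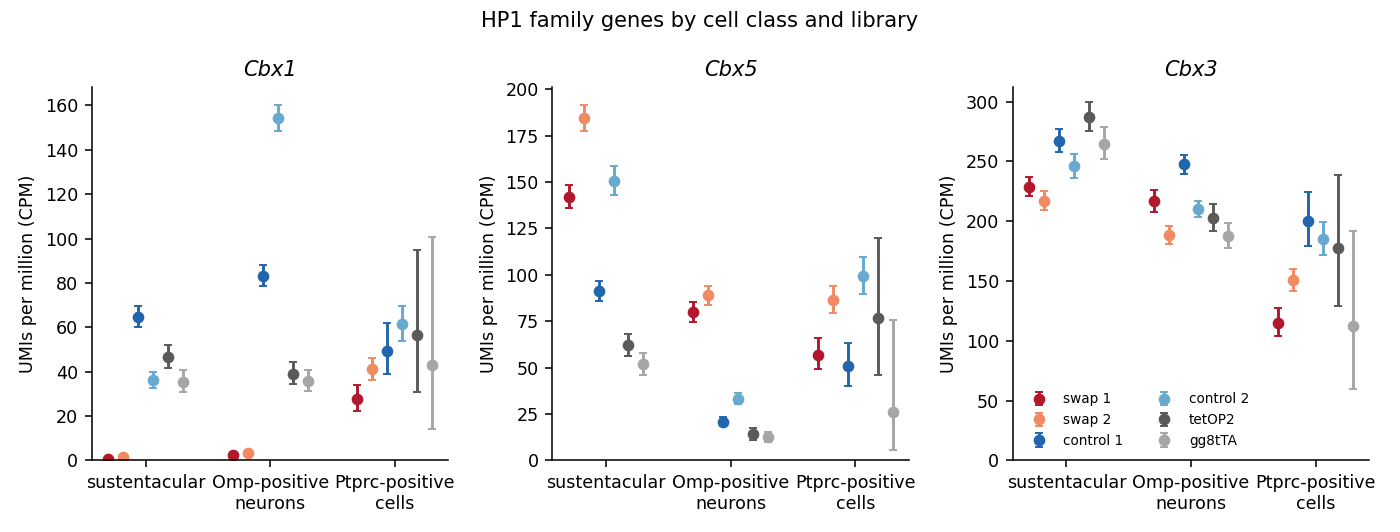
Level of *Cbx1*, *Cbx5* and *Cbx3* in CPM in each of the 6 libraries, in sustentacular cells, neurons with at least 10 *Omp* UMIs and *Ptprc*-positive cells, where bars are 95% Poisson intervals of the summed UMIs. *Cbx1* was at 0.651 and 1.44 CPM in swap sustentacular cells and at 35.4 CPM or more in the other 4 libraries, while *Cbx5* overlapped between swap and control.

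Beyond *Cbx1*, the swap and control sustentacular cells differed by the edgeR test in 2 genes, both higher in swap (0.0149% of the genes tested), and 3 of 13455 genes (0.0223%) passed in all. At an unadjusted p under 0.05 there were 449 genes, and groups that did not overlap were found for 22% of the genes tested, 12.1% higher and 9.88% lower in swap. DESeq2 called 34 of 14242 genes (0.239%), 28 of them (0.197%) higher in swap, and these held all 3 of the edgeR calls. Leaving out swap replicate 1, swap replicate 2, control replicate 1 or control replicate 2 gave 90, 178, 144 and 177 calls, with the lone library of a group assumed to vary like the others.

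*Stfa1*, a cysteine protease inhibitor of neutrophils, was at 88.1 and 63.7 CPM in swap and 0.700 and 0.790 CPM in control. It rose by 6.66 on the log2 scale (SE 0.38, edgeR, Benjamini-Hochberg adjusted p = 0.00598). However, 5 cells held 81.7% and 98.8% of its UMIs in the swap libraries, and *Ptprc*-positive cells held 10842 and 2023 CPM in swap against 2151 and 608 CPM in control. *Wfdc17*, a small secreted inhibitor made by myeloid cells, was at 30.4 and 21.2 CPM in swap and 0.876 and 1.58 CPM in control (log2 difference 4.41, SE 0.40, edgeR, Benjamini-Hochberg adjusted p = 0.0473), with 41.3% and 85.7% of its UMIs in 5 cells. In swap replicate 2 most UMIs of both genes thus lay in 5 cells, whereas in swap replicate 1 *Wfdc17* was spread over 47 cells, 15 of them with at least 10 UMIs. With predicted doublets removed no gene was called, 433 genes had an unadjusted p under 0.05, and *Stfa1* differed by 5.58 (edgeR, Benjamini-Hochberg adjusted p = 0.614, range over the alternatives 2.92e-37 to 0.614). With members carrying at least 3 UMIs of 6 leukocyte genes removed, 0 genes were called by edgeR and 268 had an unadjusted p under 0.05. *Wfdc17* then differed by 3.55 and *Cbx1*, which is no leukocyte gene and also lost its call, by -5.60 on the log2 scale, while *Stfa1* no longer passed the filter on low counts.

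The genes given next were picked from the 12 with the smallest p among those higher in swap, so they are no group fixed beforehand, and none passed the edgeR threshold. DESeq2 called all of those named, *Lcn2*, *Cd74*, *Cxcl1*, *Chil1*, *Cd14* and *Saa3*, with Benjamini-Hochberg adjusted p from 5.13e-21 to 6.01e-08. With other settings of edgeR some passed, *Lcn2* and *Saa3* with no filter on low genes (Benjamini-Hochberg adjusted p = 0.0413 and 0.0232) and *Lcn2*, *Saa3* and *Cd74* with cells thinned to 5000 UMIs (0.0247, 0.0247 and 0.0274). *Lcn2*, *Cd74* and *Saa3* also passed in edgeR with replicate number as a block (Benjamini-Hochberg adjusted p = 0.0116, 0.00710 and 0.0470). The labels do not say that equal replicate numbers mark a pair. *Lcn2*, a siderophore-binding protein of the innate response, was at 813 and 1168 CPM in swap, 105 and 138 CPM in control, 146 CPM in tetOP2 and 93.0 CPM in gg8tTA. Both swap libraries lay above the other 4 libraries, with a log2 difference of 3.03 (SE 0.32, edgeR, Benjamini-Hochberg adjusted p = 0.0584). After thinning, *Lcn2* was found in 34.1% and 25.7% of swap and 16.1% and 14.6% of control sustentacular cells, beside 3.47%, 2.32%, 0.341% and 0.638% of neurons, and without thinning in 41.6%, 36.6%, 23.5% and 26.3% of the sustentacular cells. The median depth was 14720.5, 17630, 12134.5 and 18361 UMIs in sustentacular cells and 11633, 12638, 12461.5 and 12891 UMIs in neurons. Cells with at least 10 *Lcn2* UMIs numbered 139 and 82 in swap against 29 and 27 in control.

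*Cd74*, the invariant chain of MHC class II, was at 222 and 445 CPM in swap, 17.1 and 34.7 CPM in control, 24.8 CPM in tetOP2 and 17.1 CPM in gg8tTA. The swap libraries were again above all others (log2 difference 3.70, SE 0.47, edgeR, Benjamini-Hochberg adjusted p = 0.142). After thinning, *Cd74* was found in 34.5% and 29.3% of swap against 4.51% and 10.7% of control sustentacular cells (48.5%, 42.3%, 8.88% and 20.8% without thinning), and in 1.44%, 1.11%, 0.426% and 0.877% of neurons. Its level was 8.01 and 64.8 CPM in swap and 5.03 and 19.1 CPM in control neurons. In *Ptprc*-positive cells it was at 1920 and 695 CPM in swap and 2427 and 1408 CPM in control, above the sustentacular cells of the same library, and the groups overlapped. In swap, 81 and 84 sustentacular cells held at least 10 *Cd74* UMIs, against 2 and 7 in control. Of the 9 antigen presentation genes tested, 6 were higher in swap with no overlap and none was lower, beside 12.1% of all genes tested that were higher and 9.88% that were lower with no overlap. Their median log2 difference was 0.76 beside -0.01 over all genes. None of the 9 was called by edgeR, which called 0.0223% of all genes tested. DESeq2, which called 0.239%, called *Cd74*, *H2-Aa* and *H2-Ab1*. With the leukocyte-marker members removed, *Cd74* differed by 3.89 and *Lcn2* by 2.87 on the log2 scale, and neither passed (edgeR, Benjamini-Hochberg adjusted p = 0.224 for both).

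*Cxcl1*, a neutrophil-attracting chemokine, was at 94.7 and 71.6 CPM in swap, 11.6 and 16.4 CPM in control, 16.7 CPM in tetOP2 and 32.7 CPM in gg8tTA (swap against control log2 difference 2.59, SE 0.31, edgeR, Benjamini-Hochberg adjusted p = 0.114). Unlike *Stfa1*, it was lower in *Ptprc*-positive cells, at 32.6, 4.90, 4.50 and 3.65 CPM in swap and control, and in neurons, at 0.977, 8.33, 0.522 and 1.74 CPM. *Chil1*, a chitinase-like protein, was at 92.8 and 130 CPM in swap and 5.60 and 16.2 CPM in control, and *Cd14*, the endotoxin co-receptor, at 44.0 and 80.0 CPM against 12.1 and 10.3 CPM. However, 5 cells held 47.6% and 63.1% of the *Chil1* UMIs in the swap libraries. The acute phase gene *Saa3* had no UMI in the control sustentacular cells and 26.6 and 65.7 CPM in swap, at least 332-fold higher against a floor of 3 counts over the control group, but 703 of its 912 UMIs in swap replicate 2 came from 1 cell. In swap replicate 1, 5 cells held 83.7% of the *Saa3* UMIs. These genes were higher in the libraries that also held more leukocyte RNA and more cells with ciliated markers. Whether those cells had a part in the differences was not tested. With leukocyte-marker members removed and with ciliated-marker members removed the log2 differences were 2.70 and 2.66 for *Cxcl1* (2.59 with all members), 3.54 and 3.18 for *Chil1* (3.37) and 2.90 and 2.68 for *Cd14* (2.46). None of these passed in edgeR in either setting. *Cd74* is itself 1 of the 7 leukocyte markers, and without it the other 6 summed to 578 and 926 CPM in swap and 172 and 519 CPM in control. Of these 6, *S100a8* and *S100a9* were higher in swap with no overlap, whereas *Ptprc* (3.04 and 2.81 CPM in swap, 1.40 and 3.46 CPM in control) and *Lyz2* (10.7 and 33.5 CPM, 7.44 and 23.1 CPM) overlapped. The 4 ciliated markers tested were all higher in swap with no overlap, as were 12.1% of all genes tested, with a median log2 difference of 0.81.

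**Figure D2:**
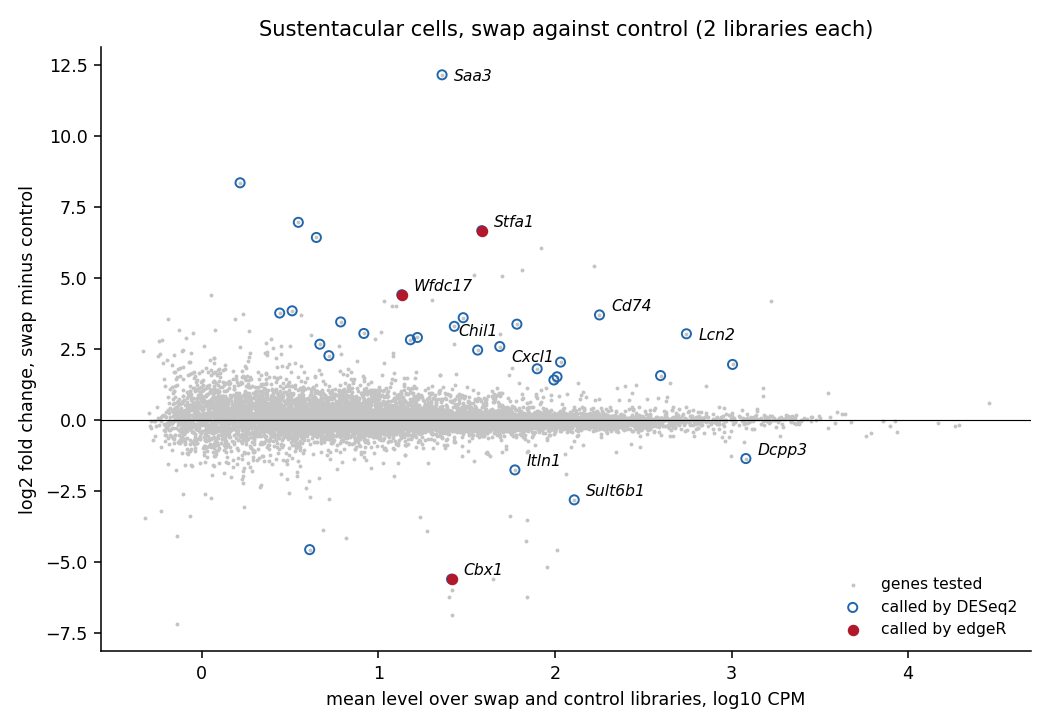
Log2 difference of swap over control against the log10 mean CPM for the 13455 genes tested in sustentacular cells, with the 3 genes called by edgeR in red and the genes called by DESeq2 circled in blue. *Cbx1* is the 1 edgeR call below 0, and most of the circled genes lie above 0.

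**Figure D3:**
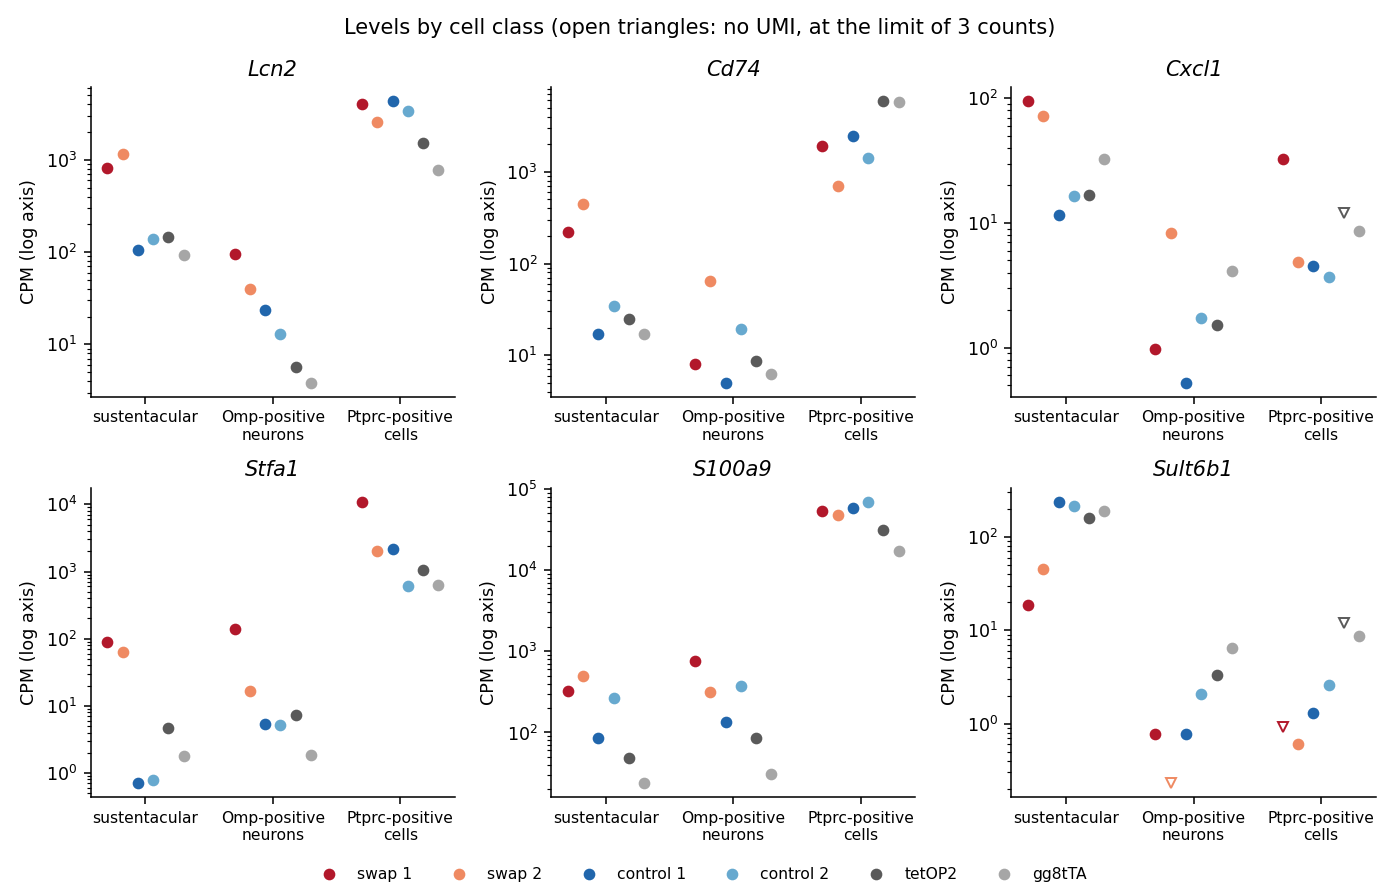
Level in CPM on a log axis of *Lcn2*, *Cd74*, *Cxcl1*, *Stfa1*, *S100a9* and *Sult6b1* in sustentacular cells, neurons and *Ptprc*-positive cells of each library, where open triangles mark libraries with no UMI, drawn at the 3-count limit. *Cxcl1* was higher in sustentacular cells than in *Ptprc*-positive cells of every library, whereas *Stfa1* and *S100a9* were higher in the *Ptprc*-positive cells.

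The gene with the smallest p among those lower in swap after *Cbx1* was *Sult6b1*, a cytosolic sulfotransferase (chr17:78883938-78906992, minus strand). It was at 18.9 and 45.8 CPM in swap, 236 and 213 CPM in control, 160 CPM in tetOP2 and 191 CPM in gg8tTA. Both swap libraries lay below the other 4, with a log2 difference of -2.81 (SE 0.43) that passed in DESeq2 (Benjamini-Hochberg adjusted p = 1.18e-10) and missed the threshold in edgeR (Benjamini-Hochberg adjusted p = 0.353, 1.18e-10 to 0.469 over all alternatives). With cells thinned to 5000 UMIs it passed in edgeR too (-3.01, Benjamini-Hochberg adjusted p = 0.0247). The difference was -2.32 without swap replicate 1 and -3.54 without swap replicate 2. *Sult6b1* was found after thinning in 4.22%, 4.51%, 11.6%, 11.9%, 10.1% and 12.2% of sustentacular cells (6.63%, 7.73%, 16.3%, 17.5%, 12.8% and 16.7% without thinning), and in 0.120%, 0%, 0.256%, 0.558%, 2.08% and 2.60% of neurons. It was concentrated in few cells, since those with at least 10 UMIs made up 0.893%, 2.58%, 5.15%, 6.54%, 5.57% and 6.63% of the sustentacular cells and held 60.5% to 95.2% of its UMIs.

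Other genes lower in both swap libraries included *Itln1*, an intelectin that binds microbial sugars (33.7 and 20.3 CPM in swap, 95.3 and 87.5 CPM in control), and *Dcpp3*, a secreted gland protein (699 and 654 CPM in swap, 1889 and 1565 CPM in control). In tetOP2 and gg8tTA, which lack the swap allele, *Itln1* was at 6.402 and 5.69 CPM and *Dcpp3* at 356 and 38.6 CPM, below both swap libraries. Neither passed in edgeR, and DESeq2 called both. In 5 cells of each swap and control library lay 35.2% to 72.9% of the *Itln1* UMIs and 46.4% to 95.7% of the *Dcpp3* UMIs. Of the 19 P450s tested beside *Cyp2g1*, *Cyp2s1* was higher and *Cyp1a2*, *Cyp4f39* and *Cyp2j6* were lower in swap with no overlap, where 12.1% of all genes tested were higher and 9.88% lower with no overlap. Their median log2 difference was -0.12 beside -0.01 over all genes tested. Of 21 glutathione S-transferases, *Mgst2* and *Gstt2* were higher and *Gsta3*, *Gstm1*, *Gstm6* and *Mgst1* lower with no overlap, beside the same 12.1% and 9.88%, with a median of -0.18. Among 8 sulfotransferases the median was 0.03. In these families *Sult6b1* was the 1 call by DESeq2 and edgeR made none, where 0.239% and 0.0223% of all genes were called, so that few or no calls are what lists of this size would hold in any case. The 11 sustentacular markers that did not choose the cells had a median of -0.12. All 11 were lower in swap, by -0.41 to -0.0037, and none was called. *Hes1* alone of them did not overlap, where 9.88% of all genes tested were lower with no overlap.

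Within each library the cells were then ordered along their detoxification genes. Each cell, thinned to 5000 UMIs, was given the mean natural log of 1 plus counts per 10000 of *Sult6b1* and *Cyp1a2*, minus the same of *Cyp4b1* and *Gstm1*, and in each library the 229, 221, 243, 146, 158 or 122 cells with the highest scores and as many with the lowest were summed as its upper and lower end. The score is a range and not a cell type, and 65, 63, 87, 57, 34 and 37 cells lay within 0.1 of a limit of either end. *Cyp4b1* is a P450 that oxidises fatty acids and furans, and *Gstm1* joins glutathione to electrophiles. The 4 genes fixed the ends, so their own differences are no finding.

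The 4 genes were not of one piece. Across the thinned cells of a library, *Cyp4b1* and *Gstm1* had a mean Spearman rho of 0.54 over the 6 libraries (0.39 to 0.67), whereas *Sult6b1* and *Cyp1a2* had a mean rho of 0.09 (-0.02 to 0.17). These correlations are across cells that share a library and a fixed depth, and are given as descriptions. Among 4643 genes the closest to *Cyp4b1* were *Prdx6* (mean rho 0.55), a peroxiredoxin, then *Gstm1*, *Insl6* (0.42), *Nt5dc2* (0.41), *Serpinb7* (0.40) and *Scgb1c1* (0.39). The closest to *Sult6b1* was *Cebpzos* (0.34), whose gene starts 9507 bases away on the opposite strand, then *Cyp2g1* (0.28), a gene of the membership rule, and *Crabp1* (0.23).

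Of 6274 genes of at least 20 CPM, 78 (1.24%) differed at least 2-fold on the log2(CPM + 10) scale in the same direction in all 6 libraries, 42 (0.669%) higher in the upper end and 36 (0.574%) higher in the lower end. Of 7 P450s tested, *Cyp2a5* was among those of the upper and *Cyp2b10* among those of the lower end, and of 4 flavin monooxygenases *Fmo6* and *Fmo1*, whereas none of 2 carboxylesterases, 6 aldo-keto and carbonyl reductases and 2 glucuronosyltransferases was. *Sult1c1* was at 7423, 5591, 7495, 7814, 5506 and 6359 CPM in the upper end and 297, 159, 108, 50.7, 46.8 and 228 CPM in the lower end. *Gstm5* was at 3163, 1900, 2492, 2284, 1987 and 2923 CPM in the upper and 71.6, 21.7, 62.6, 21.9, 41.8 and 70.5 CPM in the lower end. For both genes every upper end lay above every lower end, and the mean log2 differences were 5.67 ± 1.02 and 5.49 ± 0.44 (SD, n = 6 libraries).

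Other genes of the upper end were *Fmo6*, a flavin monooxygenase relative (mean log2 difference 5.35), *Acsm4*, an acyl-CoA synthetase known from the dorsal zone of the olfactory epithelium (5.28), *Svopl*, a transporter-like gene (4.75), *Crabp1*, a retinoic acid binding protein (3.88), and *Papss2*, which makes the sulfate donor that sulfotransferases use (3.01). *Abcc5*, an efflux pump of conjugated anions and 1 of 4 ABC transporters tested, differed by 2.87, and *Cyp2a5*, 21615 CPM in the upper and 8321 CPM in the lower end, by 1.38. Of 6 Bowman gland markers tested, *Muc5b* (2.58) and *Sox9* (1.69) were also higher in the upper end, beside 0.669% of all genes tested. The list had a median of 0.92. It summed to 862 to 1852 CPM in the upper and 530 to 731 CPM in the lower end, higher in the upper end of all 6 libraries. The part of gland RNA in the upper end was not tested.

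The lower end was led by *Insl6*, an insulin-like peptide (mean log2 difference -3.47), the protease inhibitor *Serpinb7* (-3.09), *Cyp2b10*, a P450 (-2.93), and the homeobox gene *Isl1* (-2.89). *Nt5dc2* (-2.72), *Fgl2* (-2.71), *Serpinb11*, another member of the serpin family (-2.32), *Wnt4*, a Wnt ligand (-2.26), *Fap*, a surface protease (-2.16), *Cdo1*, which oxidises cysteine (-2.04), and *Meis1*, a homeobox gene (-2.00), followed. The 4 respiratory ciliated markers had a median of -1.72 and summed to 16.5 to 621 CPM in the lower and 12.3 to 92.6 CPM in the upper end, with the upper end higher in 1 library, though none of them differed 2-fold in all 6. With ciliated-marker cells removed 88 genes differed, 77 of them among the 78. *Prdx6*, which reduces peroxides, was at 9502, 7998, 6235, 7566, 8467 and 5466 CPM in the lower end and 2260, 1786, 1775, 1685, 1963 and 1644 CPM in the upper end. The lower end also held more of *Ephx1*, the microsomal epoxide hydrolase (-1.60), *Fmo1* (-1.58), *Aldh3b1* (-1.72), *Gstt1* (-1.93) and *Gstm4* (-1.96). Summed over 24 glutathione S-transferases, the lower end was at 12633 to 29873 CPM and the upper end at 6946 to 10134 CPM, whereas the 19 sulfotransferases summed to 262 to 568 CPM in the lower and 5933 to 8670 CPM in the upper end. The first sum includes *Gstm1* and the second *Sult6b1*, which set the score. *Gstm1* alone held 8992 to 24777 CPM in the lower and 421 to 2203 CPM in the upper end. The direction of the first sum was thus built into the score and is no finding. *Sult6b1* held 57.6 to 788 CPM in the upper end. Of the transferases that did not set it, *Gstm5* of 13 glutathione S-transferases tested was higher at the upper end and *Gstt1* and *Gstm4* at the lower, and *Sult1c1* of 3 sulfotransferases tested at the upper, beside 0.669% and 0.574% of all genes at the upper and the lower end.

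**Figure D4:**
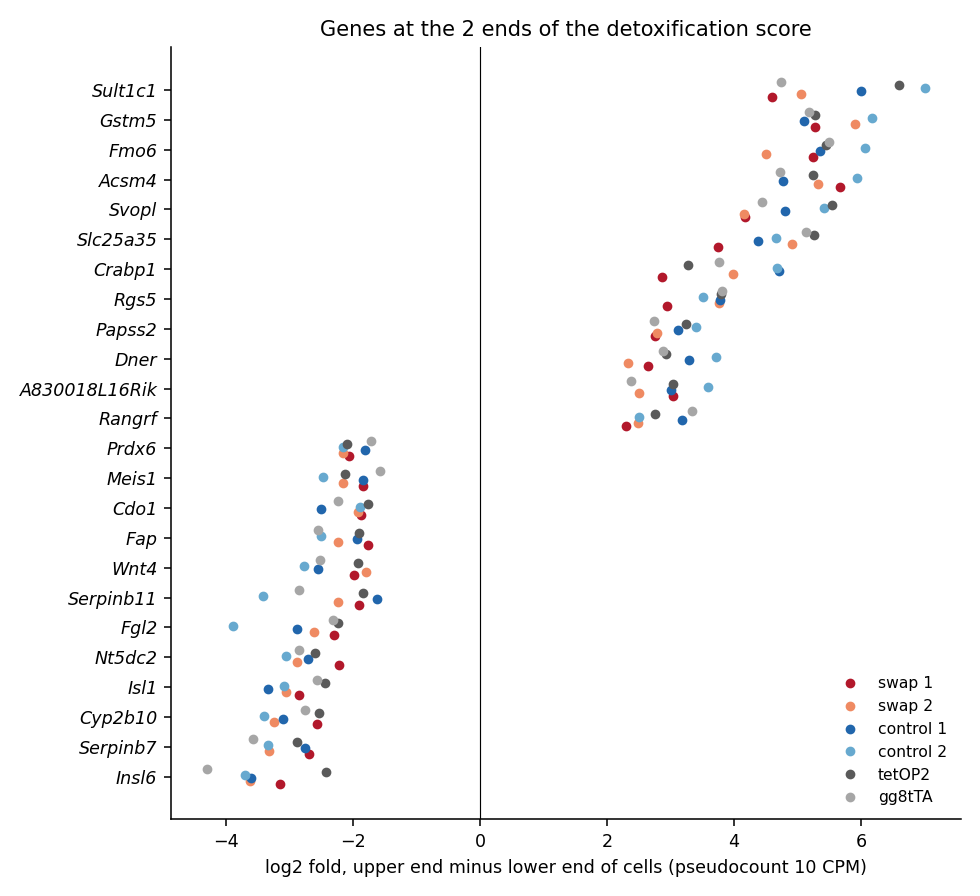
Log2 difference of CPM + 10 between the upper and lower end of sustentacular cells for the 12 leading genes at each end, with 1 point for each of the 6 libraries. All points of a gene lie on the same side of 0, from *Sult1c1* at a mean of 5.67 to *Insl6* at a mean of -3.47.

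*Gstm5* and *Gstm1*, at opposite ends, lie 113568 bases apart on chromosome 3 and belong to a family of closely similar genes, so reads that fit more than 1 member may have been lost or misassigned. The sequence before the start of each is given from RefSeq (GRCm38.p6), together with those of *Cyp4b1*, which follows *Gstm1* across cells, and *Sult6b1*, because the data bear on how these 4 genes differ between cells. Each run holds up to 250 bases before the most upstream RefSeq start, without bases inside the annotated gene, read 5′ to 3′ on the gene's strand. Capitals mark the core letters bound by the aryl hydrocarbon receptor, GCGTG, whose other strand reads CACGC, and the letters of the antioxidant response element, TGACNNNGC, whose other strand reads GCNNNGTCA.
Gstm5 (chr3:107895604-107895820, plus strand): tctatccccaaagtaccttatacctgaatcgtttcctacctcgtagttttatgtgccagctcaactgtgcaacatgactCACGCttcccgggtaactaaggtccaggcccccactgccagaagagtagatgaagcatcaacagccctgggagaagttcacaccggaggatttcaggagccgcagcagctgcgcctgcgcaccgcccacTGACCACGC
Gstm1 (chr3:108017974-108018223, minus strand): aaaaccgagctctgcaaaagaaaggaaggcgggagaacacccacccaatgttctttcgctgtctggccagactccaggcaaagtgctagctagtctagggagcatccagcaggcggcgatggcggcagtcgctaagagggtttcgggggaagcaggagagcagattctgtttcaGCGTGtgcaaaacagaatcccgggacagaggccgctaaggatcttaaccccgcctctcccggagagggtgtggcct
Cyp4b1 (chr4:115647724-115647971, minus strand): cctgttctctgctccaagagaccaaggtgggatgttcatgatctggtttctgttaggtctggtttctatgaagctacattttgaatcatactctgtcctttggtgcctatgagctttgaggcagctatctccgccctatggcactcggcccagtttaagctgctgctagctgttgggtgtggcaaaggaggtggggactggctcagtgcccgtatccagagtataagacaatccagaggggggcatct
Sult6b1 (chr17:78906993-78907242, minus strand): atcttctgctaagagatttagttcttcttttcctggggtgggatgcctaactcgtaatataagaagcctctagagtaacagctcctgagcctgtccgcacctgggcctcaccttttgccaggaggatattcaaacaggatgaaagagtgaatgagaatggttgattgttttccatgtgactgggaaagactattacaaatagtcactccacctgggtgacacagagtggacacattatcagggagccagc

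*Gstm5* held 2 matches to the first motif and 1 to the second, which overlap at the 3′ end of the run, *Gstm1* held 1 match to the first, and *Cyp4b1* and *Sult6b1* held none. Across 32851 windows of 250 bases before RefSeq starts, 28.2% held the first motif and 10.2% the second. A match is a description of letters and not a site. Both *Gstm* genes, at opposite ends of the score, held the first motif on either strand.

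Co-detection in single cells is given as a description, for genes picked from the ends of the score. *Cyp4b1* is 1 of the 4 genes that fixed those ends, so lower shares beside it were in part built into the choice. After thinning, *Cyp4b1* was found in 13.5%, 29.5%, 23.4%, 32.9%, 33.97% and 20.1% of sustentacular cells and *Acsm4*, which the score did not use, in 34.9%, 26.2%, 29.3%, 31.5%, 21.7% and 32.9%. Without thinning these were 21.7% to 42.9% and 29.7% to 44.8%. In *Ptprc*-positive cells of the 4 swap and control libraries, whose median depth was 5256.5 to 6964 UMIs, the thinned shares were 0% for *Cyp4b1* and 0% to 1.05% for *Acsm4*, while neurons held *Acsm4* in 30.3% to 45.7% of cells and *Cyp4b1* in 0.101% to 1.13%. Among sustentacular cells with a *Cyp4b1* UMI, *Acsm4* was found in 0%, 2.55%, 4.09%, 0.694%, 3.73% and 5.41%. Among those without one, it was found in 40.4%, 36.0%, 37.0%, 46.6%, 31.0% and 39.8%. Every share of the first set lay below every share of the second.

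Both *Gstm5* and *Acsm4* were picked from the leading genes of the upper end, so finding them together was in part built into the choice. *Gstm5* went with *Acsm4*. It was found in 86.2%, 78.2%, 72.4%, 76.8%, 78.6% and 81.0% of sustentacular cells with an *Acsm4* UMI and in 21.3%, 11.8%, 15.9%, 13.3%, 18.9% and 22.3% of those without one. *Sult6b1* went with neither. Its share was 4.58%, 2.87%, 3.74%, 7.97%, 7.77% and 9.09% in cells with an *Acsm4* UMI and 4.03%, 5.09%, 14.9%, 13.7%, 10.8% and 13.8% in those without one, and it was 0% to 4.17% in cells with a *Cyp4b1* UMI against 4.88% to 15.6% in those without. With *Sult6b1* against *Cyp4b1* alone as the score, 3 genes in place of 78 differed in all 6 libraries.

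**Figure D5:**
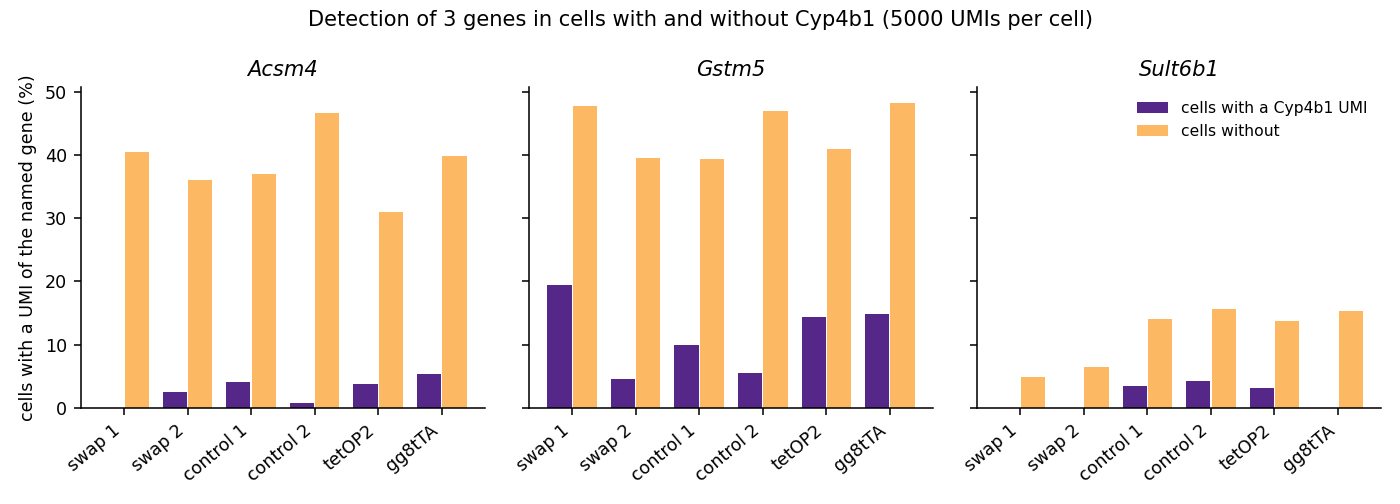
Percent of sustentacular cells, thinned to 5000 UMIs, with a UMI of *Acsm4*, *Gstm5* or *Sult6b1* among cells with and without a *Cyp4b1* UMI in each of the 6 libraries. *Acsm4* was found in at most 5.41% of cells with a *Cyp4b1* UMI and in at least 31.0% of those without.

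Swap and control libraries did not differ in the mean score beyond their spread. The mean was -0.746 and -0.934 in swap (-0.840 ± 0.133, SD, n = 2) and -0.753 and -0.711 in control (-0.732 ± 0.0300, SD, n = 2), with -1.33 in tetOP2 and -0.803 in gg8tTA. The difference of -0.108 had an exact two-sided permutation p of 0.667. The values overlapped, since swap replicate 1 lay between the controls, but with predicted doublets removed it was at -0.750 against -0.745 and -0.700 in the controls, so that both swap libraries were lower (exact two-sided permutation p = 0.333, the smallest possible). The same held with dividing cells removed. Without swap replicate 1 the difference was -0.202, and without swap replicate 2 it was -0.0138. *Acsm4* (350 and 223 CPM in swap, 378 and 276 CPM in control), *Sult1c1* and *Gstm5* overlapped between the groups too, with log2 differences of -0.19, -0.04 and 0.24. *Cyp4b1* was at 43.0 and 255 CPM in swap and 112 and 270 CPM in control, a log2 difference of -0.35 (SE 0.74, edgeR, Benjamini-Hochberg adjusted p = 1.00). In both groups the libraries of replicate 2 were the higher ones for *Cyp4b1*. *Cyp1a2* and *Gstm1* were lower in both swap libraries, with log2 differences of -0.73 (SE 0.34) and -0.55 (SE 0.37), and neither passed (edgeR, Benjamini-Hochberg adjusted p = 1.00 for both). Without swap replicate 1 these were -0.38 and -0.20, and without swap replicate 2 they were -1.18 and -1.002.

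The tetOP2 and gg8tTA libraries gave 1 sample a genotype, and their difference was not tested. Of 5966 genes of at least 20 CPM on average, 52 (0.872%) differed at least 2-fold on the log2(CPM + 10) scale, 13 higher in tetOP2 and 39 higher in gg8tTA. *Olfr17*, the receptor expressed by the transgene in neurons, was at 82.2 CPM in tetOP2 sustentacular cells (95% Poisson interval 75.7 to 89.2) and 0.178 CPM in gg8tTA, against 4933 and 15.97 CPM in the neurons. *Omp*, a neuron gene limited by the rule, was at 114 and 134 CPM in the same sustentacular cells. A low level of neuron transcripts was thus present in both, and its source was not tested. The largest difference was that of *5430401F13Rik*, at 0 CPM in tetOP2 and 18919 CPM in gg8tTA, and *Gm14744* was at 0.557 and 2690 CPM. Some genes of secreted proteins, picked from those with large differences, were also higher in gg8tTA. *Lcn11* was at 7.24 CPM in tetOP2 and 5357 CPM in gg8tTA, *Obp2a*, an odorant-binding protein, at 12.8 and 471 CPM and *Mup4* at 0.139 and 1789 CPM. Others were higher in tetOP2, namely *Dcpp3* at 356 and 38.6 CPM and, of the secreted lipid-binding Bpif family, *Bpifb4* at 418 and 25.9 CPM, *Bpifb6* at 177 and 9.598 CPM, *Bpifb3* at 35.5 and 5.33 CPM and *Bpifb1* at 101 and 40.3 CPM. The same family also held genes higher in gg8tTA, with *Bpifb9b* at 0.139 and 317 CPM and *Bpifb5* at 2.505 and 287 CPM. Both are on the list of Bowman gland markers, whose sum was higher in gg8tTA in the members (750 and 1465 CPM) and in the other cells (339 and 2432 CPM). The higher sum in the members lay mainly in these 2 genes, since *Aqp5* was at 539.7 and 547 CPM and *Muc5b* at 124 and 135 CPM, and the part of gland RNA in these differences was not tested. The matrices of these 2 libraries name no Cell Ranger version, unlike the other 4, so levels set across them may also differ by its settings. *Sult6b1* (160 and 191 CPM) and *Cyp1a2* (837 and 951 CPM) differed little between these libraries, whereas *Cyp4b1* was at 252 and 117 CPM, a difference of 1.04 on the log2(CPM + 10) scale.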

How the data were processed

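The authors dissociated olfactory epithelium with papain, made 10x Chromium v3 libraries and deposited 1 matrix of UMI counts per gene and cell for each of 6 samples, made with Cell Ranger on mm10, per the methods with introns included. The swap and control matrices name version 3.1.0 and the tetOP2 and gg8tTA matrices none, so whether version and settings were the same is not given in the sources used here. Counts were summed over sustentacular cells per library. Swap was compared with control with edgeR 4.0.16 (TMM, quasi-likelihood, low genes filtered), calling genes whose log2 difference exceeded 0.58 in size at a Benjamini-Hochberg adjusted p under 0.05. DESeq2 1.42.0, other scaling, no filter, a replicate block, thinning, other limits of the rule, and removal of predicted doublets or of 1 library were alternatives, and removal of ciliated-marker, dividing or leukocyte-marker cells was chosen after seeing the data. Doublets were kept otherwise: simulated pairs and 45 nearest neighbours marked 27, 28, 26, 9, 6 and 2 members. Named genes were the rule and score genes, listed genes, the 12 in each direction with the smallest p (only 3 were called, so these were filled by p), the leading 12 at each end of the score, the 15 most abundant and 20 most selective genes, and the 6 nearest to *Sult6b1* and *Cyp4b1*. The members and lists were chosen with earlier results of these data known. On simulated counts for 13455 genes, 3, 40, 47 and 48 of 50 genes changed 2-, 4-, 8- and 16-fold were recovered, with 5 false calls. The simulation gave every gene the same dispersion of 0.0800 and held 200 changed genes. The spread of real genes was not bound to be equal, so these rates need not hold for the real comparison. Some items are not reported here. Python used numpy 2.4.6, pandas 2.3.3 and scipy 1.17.1.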

Additional observations from a re-analysis of the deposited data

How the results depend on the processing

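The count of edgeR calls between swap and control, 3 as reported, was 34 with DESeq2, 1 with RLE size factors, 7 with no filter, 0 with doublets removed, 1 with a limit of 20 UMIs of *Cyp2g1* and *Sec14l3*, 6 with cells thinned to 5000 UMIs, 0 with leukocyte-marker cells removed, and 90 to 178 without 1 library. *Cbx1* kept its direction in all of these. Its log2 difference and adjusted p were -5.60 and 0.0524 with RLE size factors, -5.78 and 0.131 with doublets removed, -5.50 and 0.0530 with the limit of 20 UMIs, and -5.60 and 0.154 with leukocyte-marker cells removed, and it ran from -6.23 to -5.05 without 1 library. The labels do not say that equal replicate numbers mark a pair, and the deviations of replicate 1 libraries from their group means correlated at 0.460 over 13455 genes. With the replicate block there were 5 calls. *Lcn2* (3.02, adjusted p = 0.0116), *Cd74* (3.69, 0.00710) and *Saa3* (12.1, 0.0470) passed there, *Stfa1* passed again, *Wfdc17* had an adjusted p of 0.129, and *Cbx1* was at -5.52 with an adjusted p of 0.129. With cells thinned, *Lcn2*, *Saa3*, *Cd74* and *Sult6b1* passed beside *Cbx1* and *Stfa1*. With no filter, *Lcn2*, *Saa3*, *Orm1* and *1700030C10Rik* passed beside the 3 calls.

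The difference in the share of sustentacular cells ran from -2.63 to 3.55 without 1 library. The number of genes differing 2-fold between the ends of the score, 78, was 3 with *Sult6b1* against *Cyp4b1* alone, 40 with all cells divided into an upper and a lower set at the median, and 45 with a pseudocount of 50 CPM. Swap against control differences changed sign without 1 library for *Cyp4b1* (-2.10 to 0.42), *Gstm5* (-0.32 to 0.65), *Acsm4* (-0.58 to 0.13) and *Sult1c1* (-0.36 to 0.24), and for *Sult1c1* with ciliated-marker cells removed (0.036). The causes were not tested. In simulated counts with 2 libraries a group and the same dispersion for all genes, 3 of 50 genes changed 2-fold were recovered.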

Other observations

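Interferon-stimulated genes varied between libraries without following the genotype. The 12 listed genes summed to 835 and 1571 CPM in swap, 1507 and 526 CPM in control, 898 CPM in tetOP2 and 664 CPM in gg8tTA, so that swap replicate 2 and control replicate 1 were the high libraries and the groups overlapped. *Ifi27l2a* was at 136 and 390 CPM in swap and 540 and 118 CPM in control, and *Ifitm3*, which restricts virus entry, at 439 and 662 CPM in swap and 444 and 169 CPM in control. Of the 11 genes tested between swap and control none was called by edgeR, where 0.0223% of all genes tested were. Their median log2 difference was 0.09, beside -0.01 over all genes tested. Along the detoxification score the summed level was lower in the upper end of each library, at 338 to 1006 CPM against 852 to 3291 CPM in the lower end. Of 6 genes tested there, *Ifi27* alone passed the 2-fold limit in all 6 libraries, by -1.93, beside 0.574% of all genes at the lower end.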
